A study of Homo sapiens with 4 samples.

Results

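Transcripts of the interleukin-1 (IL-1) family were followed in BEAS-2B cells through 10 genes taken by symbol from the deposited count tables: the ligands IL1A, IL1B, IL18, IL33 and IL36G, the receptor antagonist IL1RN, the receptors IL1R1 and IL1RL1, the co-receptor IL1RAP and the decoy receptor IL1R2. All 10 symbols were present among the 24424 symbols of the tables. BEAS-2B is an established cell line derived from human bronchial epithelium. The question was whether a peptide of the first PDZ domain of the tight-junction protein ZO-1 changed the response to bacterial lipopolysaccharide (LPS). The Control cells received no treatment. The LPS cells received LPS for 2 h. The WT PDZ+LPS cells received the wild-type peptide for 24 h and then LPS for 2 h, and the mut PDZ+LPS cells received a mutant peptide, in which adjacent glycines were exchanged for alanines, on the same schedule. Both peptides carried a Tat stretch for cell entry and a fluorescein label, and no library with peptide and without LPS was analysed here. Each condition was 1 RNA-seq library of 1 cell line, so no comparison has a replicate check and no test between conditions was possible. The intervals given are exact 95% binomial (Clopper-Pearson) or Poisson intervals. They cover counting error between these libraries only, and reads copied by PCR are not independent molecules.

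Cytokines of this family act at the start of inflammation. IL-1α and IL-1β bind the receptor encoded by IL1R1, which recruits the accessory chain encoded by IL1RAP and signals through MyD88 and the IRAK kinases to NF-κB and AP-1, whereas the antagonist encoded by IL1RN occupies the receptor without signalling and the decoy encoded by IL1R2 captures ligand. In the airway, epithelial cells are known as a source of IL-1α, IL-18 and the nuclear alarmin IL-33, and IL-33 acts through the receptor ST2, encoded by IL1RL1.

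The total count was 24823347 for Control, 25155647 for LPS, 23446600 for WT PDZ+LPS and 19682929 for mut PDZ+LPS. All 8 bronchial epithelial markers reached a mean of 16 normalized counts or more. The keratin gene KRT7 was the highest of those inspected, at 38350 to 48326 counts per library, while the epithelial adhesion gene EPCAM was low, at 37 to 51 counts. Of the 7 macrophage or monocyte markers, PTPRC and CD163 had 0 counts in all 4 libraries and CSF1R had 0 to 2, although CD14 (362 to 507 counts) and CD68 (304 to 358 counts) were detected. The summed level of these 7 was 732 to 899 normalized counts. The summed levels of 5 T or mast cell markers and 3 endothelial markers were at most 1.74 and 14.1 normalized counts, and 5 mesenchymal markers, led by the intermediate filament gene VIM, summed to 21297 to 25543 normalized counts. The mut PDZ+LPS library stood apart in one respect. Its log2 folds against LPS followed transcript length over 11966 genes (Spearman's rho -0.590, a description across genes of 2 libraries), against 0.073 for WT PDZ+LPS over LPS. A trend over length and GC content was therefore also removed, and corrected log2 folds are given beside the log2 folds of that library. Counts, normalized counts and levels per kilobase are uncorrected throughout.

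The members that moved most, IL1A and IL1B, are neighbours in the RefSeq gene order of chromosome 2, at the first and second places of a run of 9 IL-1 family ligand and antagonist genes that ends with IL1RN. The 250 bases before the annotated start of each are shown as context for the pair, from RefSeq (assembly GRCh38.p14), on the minus strand, at chr2:112784494-112784743 for IL1A and chr2:112836780-112837029 for IL1B. Capitals mark matches on either strand to the AP-1 letters TGANTCA or the C/EBP letters TTNNGCAA.
IL1A: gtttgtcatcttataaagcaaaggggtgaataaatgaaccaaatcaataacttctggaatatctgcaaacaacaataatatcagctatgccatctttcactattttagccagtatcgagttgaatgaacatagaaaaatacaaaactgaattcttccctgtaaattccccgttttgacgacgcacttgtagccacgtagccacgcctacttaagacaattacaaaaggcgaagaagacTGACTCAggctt
IL1B: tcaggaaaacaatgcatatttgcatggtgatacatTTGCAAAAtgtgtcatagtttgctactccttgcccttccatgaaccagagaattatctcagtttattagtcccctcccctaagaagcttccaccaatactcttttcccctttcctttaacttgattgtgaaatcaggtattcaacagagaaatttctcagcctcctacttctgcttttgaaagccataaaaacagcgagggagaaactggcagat
The IL1A window held the AP-1 letters from 12 to 6 bases before the start. The IL1B window held a reverse-strand match to the C/EBP letters from 215 to 208 bases before the start. Neither window held the NF-κB motif kappa-B as searched. Over all 35116 such windows, 6.57% held the AP-1 letters, 9.05% the C/EBP letters and 9.96% the kappa-B motif, and over the 18 windows of 9 of the 10 members the numbers were 4, 1 and 1. These windows overlap where a gene has several starts, and 2 of the 4 with the AP-1 letters are IL1A windows that share the match shown, so that 3 members hold them. The window of the second IL1A start holds a further match, and the shares over windows are therefore not shares of genes. The motifs were chosen after the counts were seen, and a match of letters does not show that a factor was bound.

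The agonists IL1A and IL1B were almost silent in untreated cells and reached 177-fold and 213-fold their Control levels with LPS. The constitutive ligand IL18 and the signalling receptors IL1R1 and IL1RAP were present throughout. The antagonist, the decoy, IL33 and IL36G were at or near 0 in every library. With the wild-type peptide, IL1B was lower than with LPS alone by less than the 2-fold rule, IL1A was lower by a smaller amount, and neither was lower with the mutant peptide.

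For IL1A, the normalized count was 6.09 in Control (7 reads), 1077 with LPS alone, 835 with the wild-type peptide and 1140 with the mutant peptide. Every LPS-treated library was far above Control, and WT PDZ+LPS was the lowest of the treated libraries. In LPS over Control the fold was 177, with a counting interval of 85.5 to 441 that is wide because Control had few reads.

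IL1B followed the same outline at a lower count. Its normalized counts were 2.61 in Control (3 reads), 556 with LPS alone, 340 with the wild-type peptide and 644 with the mutant peptide. The LPS over Control ratio was 213, and its interval ran from 72.5 to 1035. The intervals of the normalized counts of the 3 treated libraries (512 to 603, 305 to 379 and 591 to 700) left WT PDZ+LPS clear of the other two, while LPS and mut PDZ+LPS overlapped.

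IL18, which encodes a cytokine stored as an inactive precursor and matured by caspase-1, was already high in Control. Its normalized counts were 1269 in Control, 1973 with LPS alone, 1761 with the wild-type peptide and 2097 with the mutant peptide. All 3 treated libraries were above Control, by a log2 fold of 0.64 (0.54 to 0.73) in LPS, which is below 2-fold.

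The remaining ligands were not detected at a usable level. IL33 had 0 counts in all 4 libraries, and 3 counts, the one-sided limit that a count of 0 allows, correspond to 0.119 to 0.152 CPM, the count scaled to a fixed library total per sample. IL36G, an epithelial alarmin of the IL-36 branch, had 0, 2, 1 and 2 counts in the same order of libraries. The antagonist IL1RN had 1 count in WT PDZ+LPS and 0 in the other libraries. No fold is given for these genes.

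**Figure D1:**
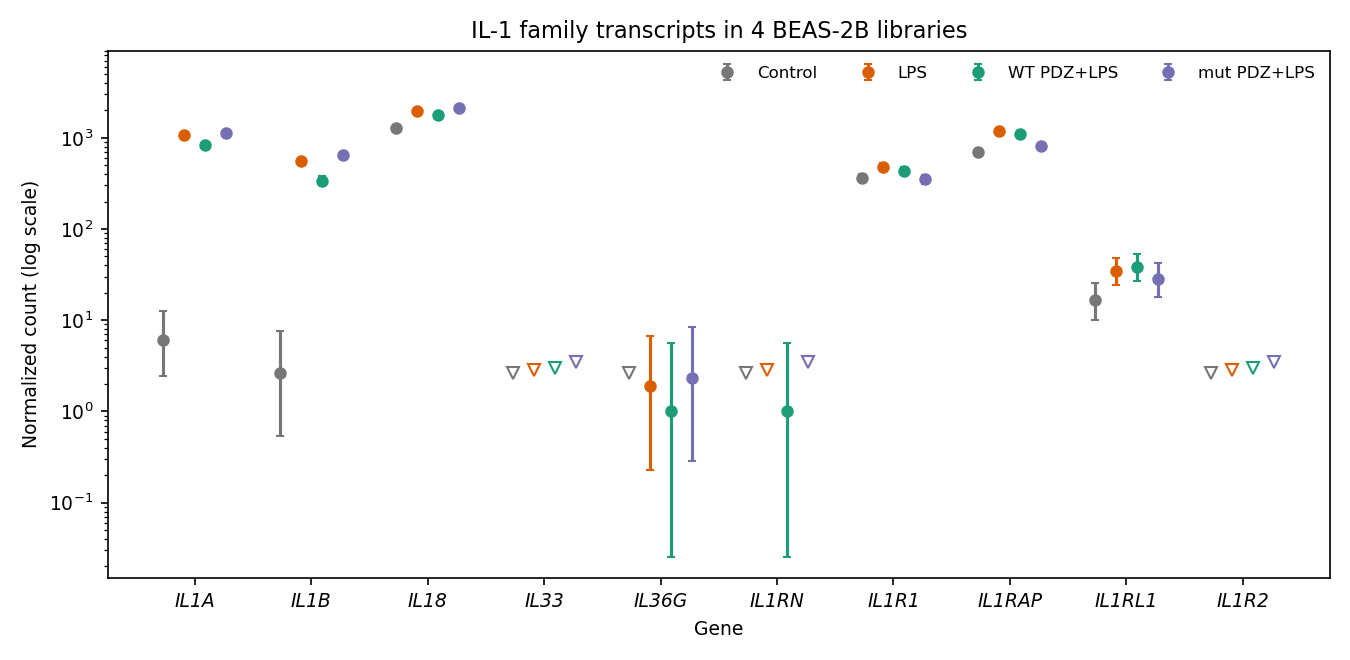
Normalized counts (log scale) of the 10 family members in the 4 libraries, with 95% Poisson counting intervals. Open triangles stand at 3 counts for a library with 0 counts. IL1A stood at 6.09 in Control and 1077 in LPS and IL1B at 2.61 and 556, while IL33 and IL1R2 had 0 counts in all 4 libraries.

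Among the receptors, IL1R1, the signalling receptor for IL-1α and IL-1β, had normalized counts of 360 in Control, 484 with LPS alone, 432 with the wild-type peptide and 352 with the mutant peptide. These levels lay close together. The interval of LPS (443 to 527) was clear of those of Control (326 to 397) and mut PDZ+LPS (314 to 395), which overlapped, and that of WT PDZ+LPS (392 to 475) overlapped all the others. The LPS over Control log2 fold was 0.42 (0.24 to 0.61). Reads from IL1R1-AS1, an annotated antisense gene that shares exon bases with IL1R1, could enter this count, since the strand setting of the counting was not given in the sources used here.

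IL1RAP, the accessory chain shared by the IL-1, IL-33 and IL-36 receptors, was more abundant than IL1R1 in every library. Its normalized counts were 707 in Control, 1181 with LPS alone, 1108 with the wild-type peptide and 811 with the mutant peptide. LPS exceeded Control by a log2 fold of 0.74 (0.61 to 0.87), again below 2-fold.

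IL1RL1, which encodes the IL-33 receptor ST2, was detected at a low level, with 19, 37, 38 and 24 counts in the same order. Its level with LPS alone was 2.10-fold that of Control, and the counting interval, 1.18 to 3.87, reached well below 2-fold. The log2 fold of 1.07 dropped below the 2-fold line with total-count scaling (0.94) and with a pseudocount of 5 (0.89), and an expression rule of 64 left IL1RL1 out. IL1RL1 shares exon bases on the same strand with IL18R1 (31, 37, 32 and 16 counts), so the split of reads between them is uncertain. The decoy receptor IL1R2 had 0 counts in all 4 libraries.

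In LPS over Control, 3 of the 10 members were at least 2-fold higher with at least 16 normalized counts in one of the libraries, namely IL1A, IL1B and IL1RL1, and none was lower. Of the 13277 genes that met the same expression rule, 3.52% were at least 2-fold higher and 1.54% at least 2-fold lower. Only 6 of the 10 members met that rule, and all 6 had intervals above 0 in LPS over Control. IL1A (6.09 in Control) and IL1B (2.61 in Control) met it only through the treated library. Having met it that way, these 2 were bound to be called higher. The share of all genes with an interval above 0 was not computed. In WT PDZ+LPS over Control the same 3 members were at least 2-fold higher, against 3.36% of 13284 genes, with log2 folds of 7.10 for IL1A, 7.03 for IL1B and 1.21 for IL1RL1. In mut PDZ+LPS over Control 2 members were at least 2-fold higher, IL1A at 7.55 (corrected 7.47) and IL1B at 7.95 (corrected 7.80), against 5.26% of 13434 genes. IL1RL1 stood at 0.77 there, with an interval of -0.16 to 1.72 that included 0, and at 0.95 (0.016 to 1.89) after the correction, which did not. The correction moved the other members of that comparison too, IL18 from 0.72 to 0.47, IL1RAP from 0.20 to 0.48 and IL1R1 from -0.03 (-0.25 to 0.19) to 0.24 (0.017 to 0.45). These comparisons share the Control library.

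Levels can be compared between genes only per length. As CPM per kilobase of the longest annotated transcript, the order in Control was IL18 (51.2), IL1RAP (6.04), IL1R1 (3.24), IL1RL1 (0.192), IL1A (0.133) and IL1B (0.0741). The intervals of IL1RL1 and IL1A overlapped, as did those of IL1A and IL1B. In LPS the order was IL18 (72.7), IL1A (21.4), IL1B (14.4), IL1RAP (9.22), IL1R1 (3.97) and IL1RL1 (0.368), with no overlap between neighbours. By the longest transcript, the agonists thus moved from the bottom of the detected members to places just below IL18. In WT PDZ+LPS the order was kept, but IL1B (8.81, 7.90 to 9.81) could not be separated from IL1RAP (8.64, 8.14 to 9.17). With the mutant peptide IL1B (17.1) was clear of IL1RAP (6.48). Those levels are uncorrected. In mut PDZ+LPS over LPS the correction shifted the log2 fold of IL1B by -0.21 and that of IL1RAP by 0.30, which narrows the gap. Which transcript is used matters for IL1B, whose longest annotated transcript has 1631 bases and whose median transcript has 581. It matters for IL1RAP too, at 5413 and 2146 bases. With median lengths IL1B (40.4) exceeded IL1RAP (23.3) and IL1A (21.4) in LPS. IL1A was thus below IL1RAP there and in WT PDZ+LPS (16.6 and 21.8), but above it in mut PDZ+LPS (23.2 and 16.3, uncorrected).

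With the wild-type peptide before LPS, 6 of the 10 members met the expression rule. None of the 6 was at least 2-fold different from LPS alone, against 1.53% of 13236 genes in either direction. With a share this low, 0 of 6 does not set the family apart. IL1B was nearest to that line, at 0.612 of the LPS level (0.534 to 0.701), a log2 fold of -0.71. IL1A was at 0.775 of the LPS level (0.708 to 0.849), a log2 fold of -0.37. Both intervals lay below 1. IL18 was at 0.893 (0.837 to 0.952), also below 1. For IL1R1 (log2 fold -0.16, -0.35 to 0.026), IL1RAP (-0.093, -0.21 to 0.025) and IL1RL1 (0.14, -0.55 to 0.83) no difference was detectable at this depth.

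The position of IL1B, IL1A and IL18 among all genes was then described. Of 11438 genes whose mean reached 64 normalized counts, 21 had a lower WT PDZ+LPS over LPS log2 fold than IL1B and 210 a lower one than IL1A. Against genes within 2-fold of its own mean level, which have similar counting error, IL1B or a lower value was found in 4 of 3580 (0.112%) and IL1A or a lower value in 15 of 4661 (0.322%). For IL18, 1100 of the 11438 genes were lower, and its value or a lower one was found in 163 of 4338 (3.76%). These shares place the members within this pair of libraries and are no test of the peptide.

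Genes higher in mut PDZ+LPS than in Control were, as a class, somewhat lower in WT PDZ+LPS than in LPS. To avoid choosing genes on a library of the contrast itself, induced genes were taken from mut PDZ+LPS over Control, a choice made after the values were seen. The folds used for the choice were uncorrected and followed transcript length (Spearman's rho -0.438 over 12002 genes). Whether that trend brought genes into the class was not tested. Of 377 genes at least 2-fold higher there whose mean reached 64 normalized counts, 268 (71.1%) had a WT PDZ+LPS over LPS log2 fold below 0, with a median of -0.11 and a range of -0.46 to 0.25 from the 5th to the 95th percentile. IL1B lay below that range, with 7 of the 377 genes lower, and IL1A lay inside it, with 37 lower.

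**Figure D2:**
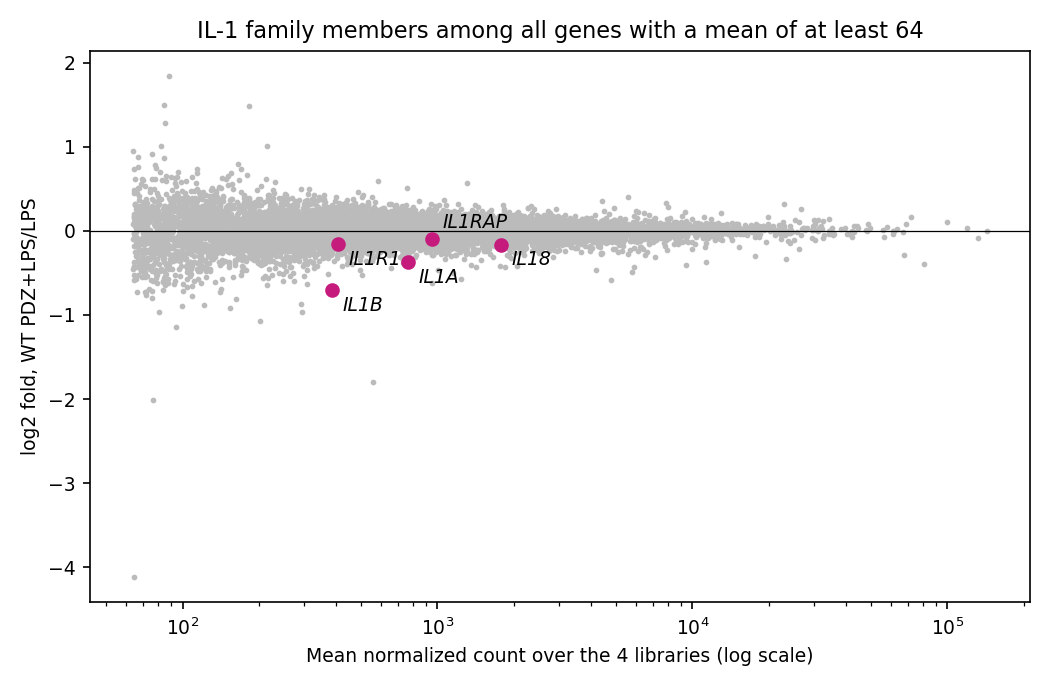
Log2 fold of WT PDZ+LPS over LPS against the mean normalized count over the 4 libraries (log scale) for 11438 genes (grey), with the 5 family members that reach a mean of 64 in colour. IL1B (-0.71) and IL1A (-0.37) lie at the lower edge of genes of like level. IL18 (-0.16) has 3.76% of its like-level genes at or below it, whereas IL1R1 (-0.16) and IL1RAP (-0.093) lie further within theirs.

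With the mutant peptide before LPS, again none of the 6 members that met the expression rule was at least 2-fold different from LPS alone. The share was 4.25% of 13378 genes in either direction, so 0 of 6 does not set the family apart here either. IL1A had a log2 fold of 0.08 (-0.043 to 0.21), and IL1B one of 0.21 (0.042 to 0.38). After the length and GC correction these became -0.06 (-0.18 to 0.068) and 0.0014 (-0.17 to 0.17), and both intervals then included 0. The receptor chains, which have long transcripts, showed the reverse. IL1R1 had a log2 fold of -0.46 (-0.67 to -0.25) and IL1RAP one of -0.54 (-0.68 to -0.41), and the correction reduced them to -0.17 and -0.25. The corrected interval included 0 for IL1R1 (-0.38 to 0.040) but not for IL1RAP (-0.38 to -0.11). IL18, with the shortest transcript of the detected members, changed sign, from 0.088 (-0.0034 to 0.18) to -0.24 (-0.34 to -0.15). IL1RL1 had a log2 fold of -0.30 (-1.11 to 0.48), corrected to -0.13 (-0.94 to 0.65). Of 299 genes at least 2-fold higher in WT PDZ+LPS over Control, taken as above, the median mut PDZ+LPS over LPS log2 fold was -0.01, and 165 were lower than IL1A and 204 lower than IL1B. After the correction, 113 of the 280 genes with a corrected value were lower than IL1A and 138 lower than IL1B.

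The peptides were compared directly on the same time schedule. None of the 6 members that met the expression rule was at least 2-fold different in mut PDZ+LPS over WT PDZ+LPS. The share was 4.6% of 13372 genes in either direction, and 0 of 6 again does not set the family apart. IL1B was 1.89-fold higher with the mutant peptide (1.65 to 2.17), a log2 fold of 0.92 that became 0.70 (0.50 to 0.90) after the correction. IL1A had a log2 fold of 0.45 (0.31 to 0.58), with a corrected log2 fold of 0.33 (0.19 to 0.46). Both stayed above 0 either way. IL18 (0.25, corrected -0.084), IL1R1 (-0.29, corrected 0.0034) and IL1RAP (-0.45, corrected -0.13) had corrected intervals that included 0, and IL1RL1 (-0.44, -1.25 to 0.33, corrected -0.25, -1.06 to 0.52) showed no detectable difference at this depth.

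**Figure D3:**
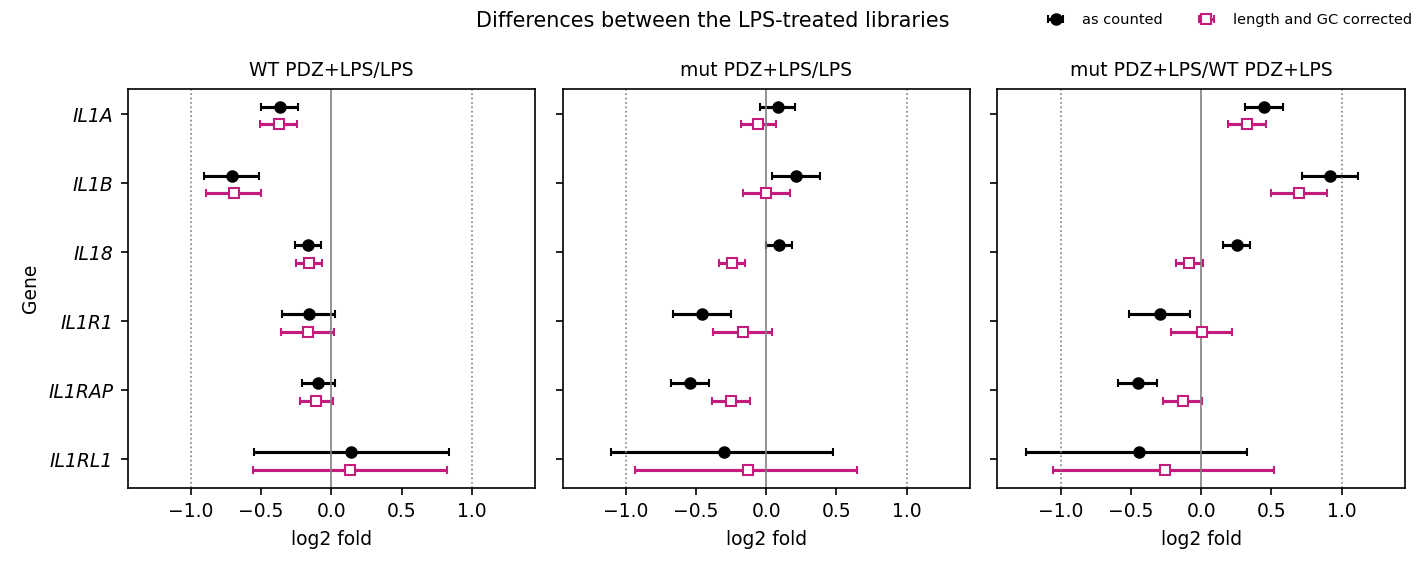
Log2 folds of the 6 detected members between the LPS-treated libraries, with 95% counting intervals, as counted (filled circles) and after removal of the length and GC trend (open squares). Dotted lines mark 2-fold. IL1B was -0.71 in WT PDZ+LPS over LPS and 0.92 in mut PDZ+LPS over WT PDZ+LPS, and the values of IL1R1 and IL1RAP in the mut PDZ+LPS panels moved toward 0 with the correction.

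Ratios of members within a library do not depend on scaling between libraries. The ratio of IL1A to IL1B counts was 1.94 (1.75 to 2.14) with LPS alone, 2.45 (2.16 to 2.79) with the wild-type peptide and 1.77 (1.59 to 1.97) with the mutant peptide. IL1B was therefore lower relative to IL1A with the wild-type peptide. The ratio in WT PDZ+LPS was 1.27 times that in LPS (1.08 to 1.49), and that in mut PDZ+LPS was 0.721 times that in WT PDZ+LPS (0.610 to 0.853), or 0.774 times (0.654 to 0.915) with the correction. With 7 and 3 reads, the Control ratio of 2.33 (0.533 to 14.0) could not be separated from any of them.

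The ratio of IL1RAP to IL1R1 counts was 1.96 in Control, 2.44 with LPS alone, 2.56 with the wild-type peptide and 2.30 with the mutant peptide. It was 1.25 times as high in LPS as in Control (1.06 to 1.46), and between the treated libraries no difference was detectable. The antagonist and the decoy can be set beside their partners where those were well counted. In LPS, the limit of 3 counts for IL1RN was 0.508% of the IL1B count, and the limit for IL1R2 was 0.584% of the IL1R1 count.

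**Figure D4:**
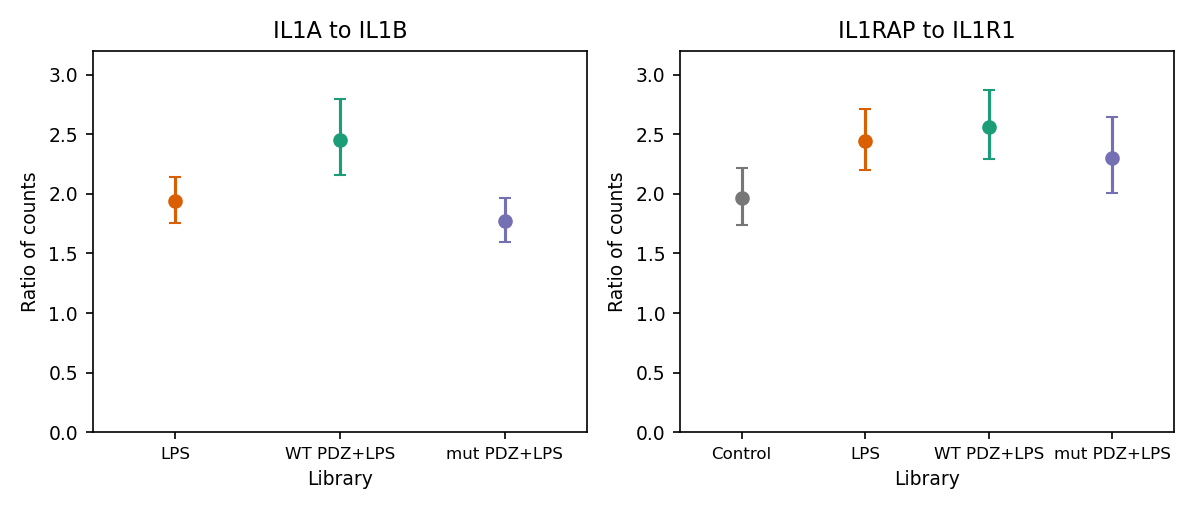
Ratio of counts within each library for IL1A to IL1B (left, Control not drawn for its 7 and 3 reads) and IL1RAP to IL1R1 (right), with exact 95% counting intervals. IL1A to IL1B was highest in WT PDZ+LPS at 2.45, and IL1RAP to IL1R1 was lowest in Control at 1.96.

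The other genes of the ligand and receptor clusters were little used in these cells. In the chromosome 2 ligand run, IL1A and IL1B alone had more than 2 counts in any library. Among 7 further receptors and soluble inhibitors, IL1RL2, the IL-36 receptor, had 8 counts in Control, 19 with LPS alone, 13 with the wild-type peptide and 5 with the mutant peptide. It was at least 2-fold higher in LPS over Control (log2 fold 1.36) and at least 2-fold lower in mut PDZ+LPS over LPS (-1.61, corrected -1.64), both on few reads. IL1RL2 met the expression rule only through the LPS library, and having met it that way was bound to be called in both comparisons. Of the 7 genes, 4 met the rule in each. Over all genes, 3.52% were at least 2-fold higher in the first comparison, and 4.25% differed that much in either direction in the second. IL18RAP, the signal-bearing chain of the IL-18 receptor, had 0 counts in all libraries, while the secreted IL-18 inhibitor IL18BP had 163 counts in LPS and the inhibitory receptor SIGIRR had 103.

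Of 22 genes of the MyD88 signalling chain below the receptor, all met the expression rule and 3 were at least 2-fold higher in LPS over Control, while 0 were lower, against 3.52% and 1.54% of all genes. The median log2 fold of the list was 0.05, against -0.0023 over all genes. The 3 were the kinase gene IRAK2 (126 counts in Control and 1140 in LPS, log2 fold 3.29), IRAK3, which encodes a brake on the pathway (1.70), and the ubiquitin ligase gene PELI1 (1.38). MYD88 itself was at -0.11. None of the 22 was at least 2-fold different in WT PDZ+LPS over LPS, against 1.53% of all genes. The list had a median of 0.01 there, with 11 above and 11 below 0. None of the 22 was in mut PDZ+LPS over LPS, against 4.25% of all genes, and the list had a median of -0.22 (corrected -0.07). CHUK, an IκB kinase gene, was at least 2-fold lower in mut PDZ+LPS over WT PDZ+LPS (-1.09, corrected -0.97), the only one of the 22, where 4.6% of all genes differed that much in either direction.

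Of 20 genes for processing and release of the cytokines, 16 met the expression rule and 1 of the 16, the protease gene CTSS, was at least 2-fold higher in LPS over Control (22 and 79 counts, log2 fold 1.96), where 3.52% of all genes were. The median was 0.08. CASP1, whose product matures IL-1β and IL-18, had 1035 counts in Control and 1020 in LPS. Inflammasome sensors were scarce, with AIM2 at 0 counts in all libraries and NLRP3 at 6 counts in WT PDZ+LPS and 0 in the others. None of the 16 was at least 2-fold different between the treated libraries. The shares of all genes were 1.53% in WT PDZ+LPS over LPS, 4.25% in mut PDZ+LPS over LPS and 4.6% in mut PDZ+LPS over WT PDZ+LPS. With shares this low, 0 of 16 does not set the list apart.

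Genes known to be inducible by IL-1 were mostly induced, though LPS itself induces the same genes and the sources cannot be told apart here. Of 30 such genes, 27 met the expression rule. Of the 27, 25 were at least 2-fold higher in LPS over Control, against 3.52% of all genes, with a median log2 fold of 4.26. A gene near 0 in Control meets the rule only through LPS and is then bound to be called higher. How many of the 25 met it that way was not counted. The list was also chosen with earlier results of these data known, so its share is a description only. The highest were the matrix metalloproteinase gene MMP3 (9.17), the chemokine gene CCL20 (8.37) and the growth factor gene CSF2 (8.21). In WT PDZ+LPS over LPS 0 of the 27 were at least 2-fold different, against 1.53% of all genes. Of the 27, 21 were below and 6 above 0, with a median of -0.13. The 377 induced genes described above lay close to this, with 71.1% below 0 and a median of -0.11. In mut PDZ+LPS over LPS 0 of the 27 were at least 2-fold different, against 4.25% of all genes. The median there was 0.25 and became 0.02 after the correction.

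**Figure D5:**
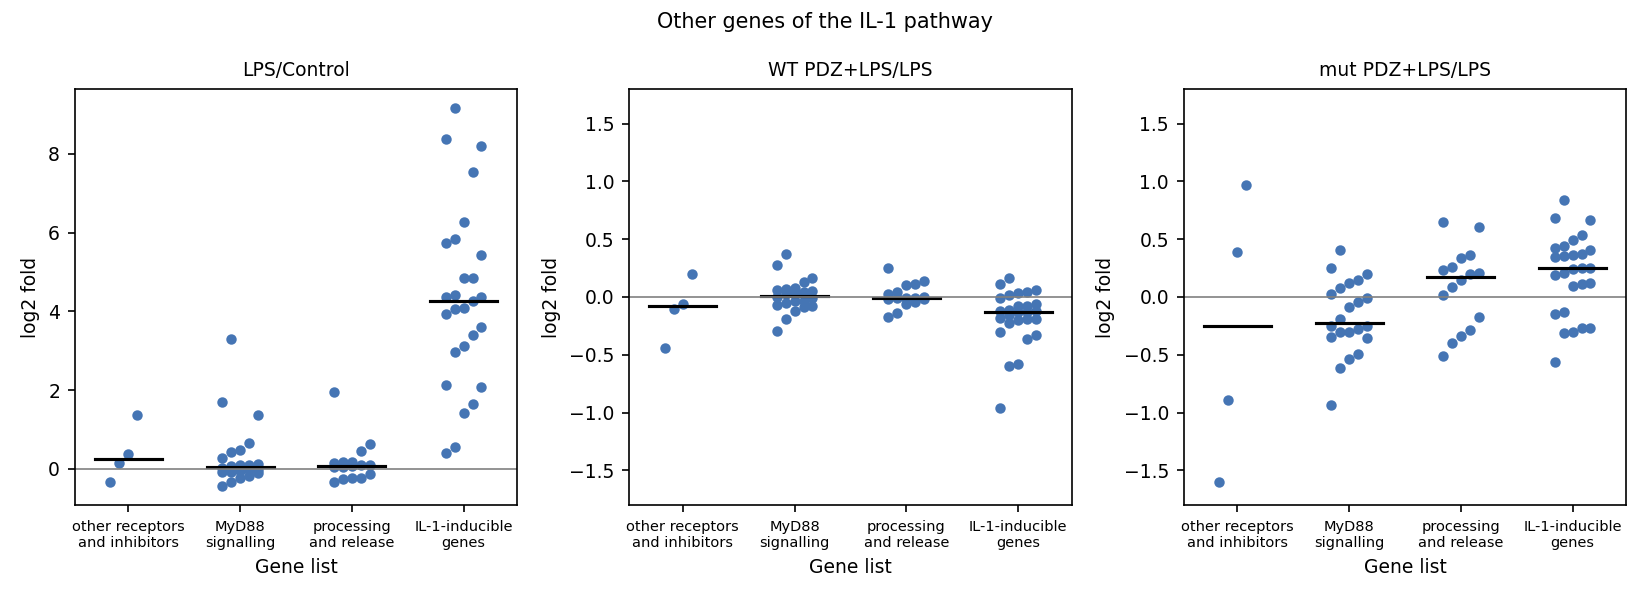
Log2 folds of genes in 4 lists of the IL-1 pathway that met the expression rule, in LPS over Control (left), WT PDZ+LPS over LPS (middle) and mut PDZ+LPS over LPS (right, as counted). Points are genes and bars are medians, and the vertical scale of the left panel differs from the others. The IL-1-inducible genes had a median of 4.26 in LPS over Control and -0.13 in WT PDZ+LPS over LPS.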

How the data were processed

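BEAS-2B total RNA was sequenced from 4 libraries, 1 per condition, grouped by the labels, from a directional library kit. The files deposited by the authors hold raw counts per gene symbol. Per the study's methods, reads were checked with FastQC and trimmed with FASTX_Trimmer and BBMap before mapping, and the submitters' processing notes name TopHat and hg19. The counting tool, its annotation and its strand setting are not given in the sources used here. Counts were divided by geometric (median-of-ratios) size factors from DESeq2 1.42.0 (R 4.3.3). A gene was tested where either library of a comparison had at least 16 normalized counts, and was called at a fold of at least 2, with no pseudocount and with 0 counts set to a limit of 3. Alternatives were scaling by the upper quartile, by total count or by TMM (edgeR 4.0.16), pseudocounts of 1 and 5, other expression rules and fold thresholds, and a lowess correction (span 0.3) for transcript length and GC content, from GENCODE 29, available for 18503 symbols. No gene coordinates are given, since that build differs from hg19, except for the RefSeq windows. Intervals were computed in Python 3.11.15 with scipy 1.17.1. The fold and interval code was tested on simulated data. The members and gene lists were chosen with earlier results of these data known. Named genes were all members, of each list up to 3 highest and 3 lowest folds in LPS over Control and every gene called between treated libraries, cell markers, and the 3 nearest profiles of each member, of which some are not reported here. Other genes named from the lists (MYD88, CASP1, IL18RAP, IL18BP, SIGIRR, AIM2, NLRP3 and IL18R1) were chosen after their values were seen.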

Additional observations from a re-analysis of the deposited data

How the results depend on the processing

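The agonists IL1A and IL1B were called higher than Control in every treated library under each alternative tried, whereas IL1RL1 in LPS over Control was not called under total-count scaling, a pseudocount of 5, an expression rule of 64 or a fold threshold of 3. With 1 library per condition no replicate could be left out, and the intervals hold only counting error. Depth limits IL1RL1, IL36G and IL1RN, and the Control values of IL1A and IL1B. No paired analysis was possible because each condition has 1 library and the labels give no replicate numbers. At a fold threshold of 1.5 the number of members called became 5 in LPS over Control, 4 in mut PDZ+LPS over Control, 1 in WT PDZ+LPS over LPS (IL1B, lower) and 1 in mut PDZ+LPS over WT PDZ+LPS (IL1B, higher). The other 56 of 60 counts of members called were within 1.5 times the value given, and all 12 changes of the within-library ratios moved by less than their intervals. Over all genes, the fold threshold of 1.5 called 906 upward and 654 downward of 13277 in LPS over Control. The same counts were 1587 and 1630 of 13434 for mut PDZ+LPS over Control, and 298 and 308 of 13236 for WT PDZ+LPS over LPS. For mut PDZ+LPS over WT PDZ+LPS they were 1145 and 1453 of 13372. With so many genes called there, 1 of the 6 tested members does not set the family apart.

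Of 288 recomputed member folds, 273 stayed inside their counting intervals. The other 15 were 3 under total-count scaling, among them IL18 and IL1RAP in LPS over Control at 0.51 and 0.61, and 12 under the length and GC correction in comparisons of mut PDZ+LPS. For IL1B in WT PDZ+LPS over LPS the range over all alternatives was -0.72 to -0.69, and for IL1A it was -0.38 to -0.37. Of 23 levels per kilobase, 16 moved with the median transcript length.

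Total-count scaling shifted the median of all genes by -0.13 in LPS over Control and in WT PDZ+LPS over Control, and took the share of called genes that were higher from 69.6% to 57.6%, from 68.9% to 55.4% and, in mut PDZ+LPS over Control, from 62.7% to 52.0%. Upper-quartile scaling took it from 51.4% to 62.1% in mut PDZ+LPS over WT PDZ+LPS. Over all genes, the 467 higher and 204 lower in LPS over Control became 882 and 674 with no expression rule and 333 and 50 with a rule of 64. The 97 higher and 105 lower in WT PDZ+LPS over LPS became 451 and 504, and 8 and 5, under the same rules, and 38 and 59 with a pseudocount of 5. The 298 higher and 271 lower in mut PDZ+LPS over LPS became 145 and 133 after the length and GC correction, and the 316 and 299 in mut PDZ+LPS over WT PDZ+LPS became 145 and 118.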

Other observations

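For each member whose mean reached 64 normalized counts, the genes with the nearest profile were taken among 11438 genes, by the Euclidean distance between log2(normalized count + 1) centred over the 4 libraries. With 4 libraries this describes likeness in these data only. Among those nearest to IL1A were C15orf48 (distance 0.171), LTB (0.232) and IL1B (0.346). C15orf48 had normalized counts of 0.870 in Control, 262 with LPS alone, 190 with the wild-type peptide and 260 with the mutant peptide.

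Among those nearest to IL1B were LTB (distance 0.245) and IL1A (0.346). LTB, which encodes lymphotoxin beta, had 0 counts in Control and normalized counts of 139 with LPS alone, 108 with the wild-type peptide and 180 with the mutant peptide. Like IL1B, it was lowest of the treated libraries in WT PDZ+LPS, a likeness that follows from its choice by nearest profile.

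The members that were present in Control had closer neighbours. Among those nearest to IL18 were SRGN (distance 0.042), LOC101926898 (0.070) and ZNF182 (0.071). Among those nearest to IL1R1 were TNFRSF10D (0.044) and TMEM87B (0.050), and among those nearest to IL1RAP were SDCBP2-AS1 (0.052), ATP6V1B2 (0.054) and SMAD7 (0.056).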
